A study of Homo sapiens with 9 samples.

Results

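Integrins, laminins and collagens, the receptors and structural proteins through which an epithelial cell holds on to its matrix, were followed in HCT116 cells with forced expression of the lncRNA CRLM1. The group was defined by gene symbol among the protein-coding entries of the count table (integrin alpha and beta chains, laminin alpha, beta and gamma chains, and collagen chains), and 75 of the 31558 genes in the table met the rule. They comprised 26 integrins, 11 laminins and 38 collagens. The rule itself uses symbols and gene type and no expression value.

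HCT116 is a human colorectal cancer cell line of epithelial origin. The 9 libraries fell into 3 groups of HCT116 cells with 3 biological replicates each. The CRLM1-OE group received a plasmid expressing CRLM1, the Ctrl group the empty plasmid, and the Anti group the antisense control of CRLM1. Whether the replicates came from separate transfections is not given in the sources used here, so p-values measure the spread between these libraries, which may be technical. Against Ctrl the comparison asks what CRLM1 expression does to these genes, and against Anti it asks the same with an antisense insert as the control.

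Integrins are heterodimers of an alpha and a beta chain, and the pairing decides what is bound: ITGA3 and ITGA6 chains serve laminins, ITGA1, ITGA2, ITGA10 and ITGA11 chains collagens, and ITGA5 and ITGAV chains proteins with an RGD motif such as fibronectin. Laminins are trimers of an alpha, a beta and a gamma chain and form the sheet of the basement membrane on which epithelial cells sit. Collagens range from fibril-forming chains of connective tissue to the type IV network of basement membranes, the anchoring fibrils beneath it, and transmembrane collagens. In the hemidesmosome, ITGB4 paired with ITGA6 and the transmembrane collagen COL17A1 tie the keratin cytoskeleton to the laminin that holds the LAMA3 and LAMB3 chains, a structure known for firm anchorage of epithelia.

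Total counts were between 33302292 and 44514692 per library, so that 3 counts, the smallest signal considered, corresponded to 0.0674 to 0.0901 CPM (counts scaled to a common library total), a limit that covers counting error only. Replicates of a group had a correlation of log2 CPM between 0.9978 and 0.9981 across 12941 genes, and no library stood apart. The entry for CRLM1 (RP4-710M16.2) held 32751 to 38704 counts in CRLM1-OE and 0 in each Ctrl library. It held 1540 to 1951 counts in Anti, where reads of the antisense insert cannot be told from CRLM1 because no source states whether strand was used in counting. Epithelial markers (5 genes) summed to 9030 to 9110 CPM in CRLM1-OE, 11200 to 11300 in Ctrl and 9220 to 9290 in the Anti group, while 4 fibroblast markers summed to at most 0.365 CPM, 4 leukocyte markers to at most 4.19 CPM and 4 endothelial markers to at most 1.21 CPM in any library; their part in the results was not tested. Fewer cells with a transcript and less of it per cell cannot be told apart in such bulk RNA.

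Of the 75 genes, 38 had a mean of at least 100 counts over the 9 libraries (11 integrins, 10 laminins and 17 collagens), 9 had between 10 and 100, and 28 had fewer than 10, of which 10 had a mean under 1. Levels of different genes were compared by FPKM, which the authors scaled for transcript length and which was given for 72 of the 75. The highest mean over the 9 libraries was that of ITGB1, the shared beta chain of most matrix receptors (124 FPKM), followed by LAMB3 (103 FPKM), ITGA3 (97.3 FPKM) and ITGB4 (65.7 FPKM). The next included COL6A2 (42.5 FPKM), COL18A1, a heparan sulfate collagen of basement membranes (34.9 FPKM), COL6A1 (29.98 FPKM), LAMB2 (19.9 FPKM) and LAMC1 (18.1 FPKM).

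**Figure D1:**
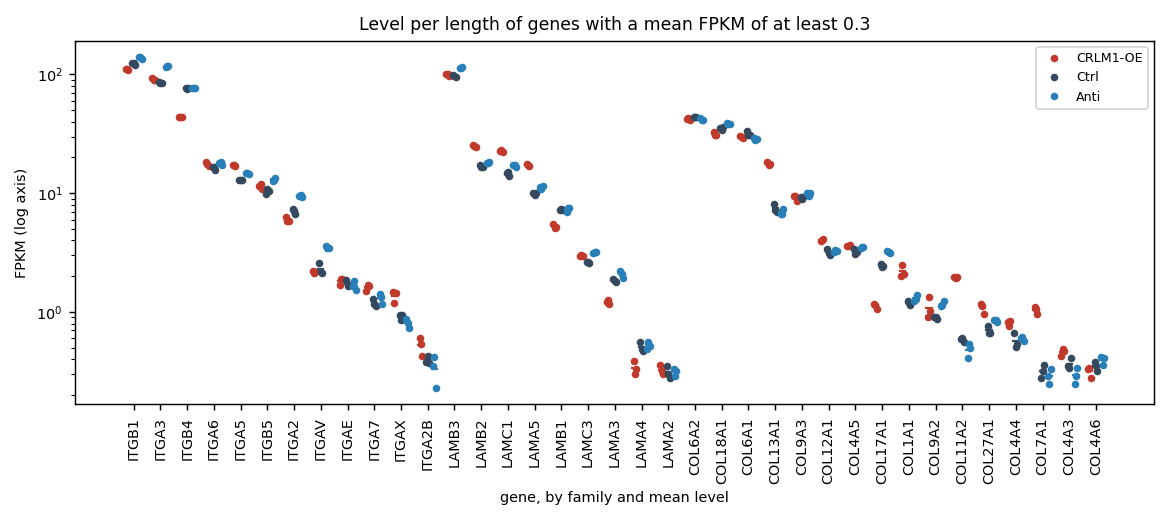
FPKM (log axis) of 37 genes with a mean of at least 0.3, by family and in falling order of the mean. Each point is a library and each short line the mean of a group; ITGB4, COL17A1 and LAMA3 are lowest in CRLM1-OE (red), and COL7A1 and COL11A2 highest there.

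Chains that usually work together were not always detected together, as judged by raw counts, which are not scaled for length. COL1A1, the main chain of type I collagen, had a mean of 454 counts, whereas its partner COL1A2 had 1 count in the 9 libraries together. The type IV chains COL4A1 and COL4A2, the common chains of basement membranes, had means of 1.44 and 0.778 counts, whereas COL4A5 had 964, COL4A4 283, COL4A3 130 and COL4A6 105. Among laminins LAMA1 alone was nearly silent, with 0 to 4 counts per library. ITGA4 and ITGB6 were also at or near the limit, with means of 0.111 and 2.22 counts.

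In CRLM1-OE against Ctrl, 21 of the 74 genes tested rose and 13 fell at an edgeR adjusted p of at most 0.05, and 40 did not pass. Over all 29846 genes tested, 15.0% rose and 16.8% fell, so the share that rose (28.4%) lay above that of all genes and the share that fell (17.6%) close to it. Among the 38 with a mean of at least 100 counts, 14 rose (36.8%) and 12 fell (31.6%), beside 28.8% and 39.1% of the 11702 genes at that level. The median log2 fold change of the 38 was 0.03, and that of the 11702 genes -0.05. DEGs, defined by a fold change of at least 2 with adjusted p of at most 0.05, numbered 7 up and 2 down among the 74, beside 2.5% up and 0.915% down of all genes. Of these, 3 up and 1 down were among the 38 with a mean of at least 100 counts, a level for which the share of all genes was not taken. The families divided internally: 7 integrins rose and 5 fell, 4 laminins rose and 4 fell, and 10 collagens rose and 4 fell. With a trend in GC content and transcript length removed, 18 of the 74 rose and 16 fell. The median of the 38 was then -0.04, below that of the 11702 genes at -0.02. Shares of all genes were not taken with that trend removed, and whether any of these shares differ from those of all genes was not tested.

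In CRLM1-OE against Anti, 21 of 75 rose and 18 fell, beside 17.1% and 18.5% of the 30183 genes tested. With a mean of at least 100 counts, 14 of 38 rose and 17 fell, beside 33.8% and 40.4% of all genes at that level. DEGs were 8 up and 1 down, beside 3.09% and 2.56% of all genes, and 3 up and 1 down among the 38. By family, 7 integrins rose and 8 fell, 3 laminins rose and 5 fell, and 11 collagens rose and 5 fell. With the GC and length trend removed, 19 rose and 18 fell. The median log2 fold change of the 38 was then -0.07 in place of -0.01, and that of all 11702 genes -0.01 in place of -0.04. Both comparisons use the same CRLM1-OE libraries, so their values are given side by side and not as independent evidence.

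**Figure D2:**
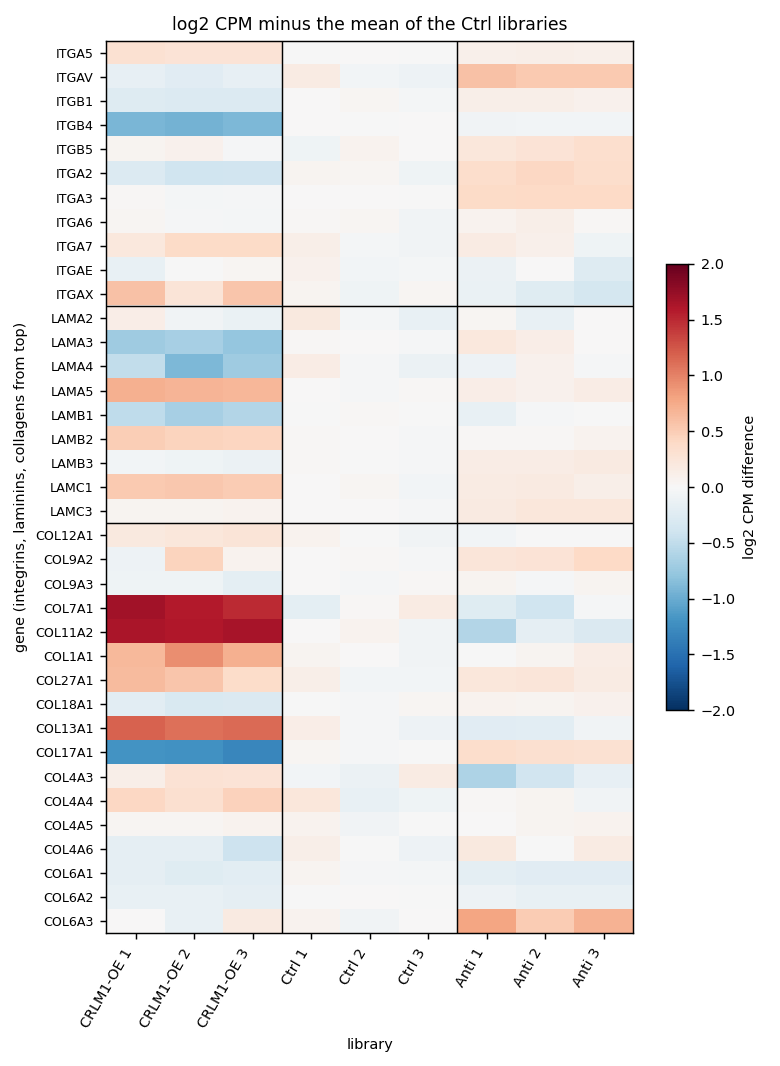
log2 CPM of each of the 9 libraries minus the mean of the 3 Ctrl libraries, for 37 genes with a mean of at least 100 counts, red above and blue below. Lines separate the groups and the families; the values run from -1.3 to 1.68, with COL17A1 and ITGB4 lowest and COL7A1 and COL11A2 highest in CRLM1-OE.

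ITGB4, the beta chain of the hemidesmosome receptor, fell in CRLM1-OE. It had 298, 292 and 301 CPM in the CRLM1-OE libraries, 564, 555 and 561 CPM in Ctrl, and 532, 539 and 540 CPM in Anti. Every CRLM1-OE library lay below every control library, and the spread within a group was small beside the gap. ITGB4 was down-regulated by 0.92 on the log2 scale against Ctrl (a 1.89-fold fall, log2 fold change -0.92 ± 0.0224 SE, n = 3 per group, edgeR adjusted p = 1e-300, the smallest value written) and against Anti (-0.85 ± 0.0198, edgeR adjusted p = 1e-300), short of the 2-fold limit for a DEG. Its partner ITGA6 ran from 110 to 116 CPM in CRLM1-OE, 108 to 116 CPM in Ctrl and 115 to 122 CPM in Anti. The difference of ITGA6 from Ctrl did not pass (-0.01 ± 0.0302), and that from Anti passed at -0.07 ± 0.0276 although the libraries overlapped. The call of ITGA6 was lost without CRLM1-OE replicate 3 (-0.05, edgeR adjusted p = 0.284), CRLM1-OE replicate 2 (0.0651) or Anti replicate 2 (-0.04, 0.356).

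COL17A1, the collagen of the same structure, was the only DEG that fell in both comparisons among these genes. Its libraries held 7.68, 7.56 and 7.12 CPM in CRLM1-OE, 18.0, 17.2 and 17.4 CPM in Ctrl, and 22.3, 21.9 and 21.7 CPM in Anti. All 3 groups were separate, with CRLM1-OE lowest and Anti highest. The fall was 2.35-fold against Ctrl (log2 fold change -1.24 ± 0.0769, edgeR adjusted p = 2.32e-56) and 2.94-fold against Anti (-1.56 ± 0.0719, edgeR adjusted p = 5.36e-102).

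The laminin chain LAMA3, which gives that laminin its receptor-binding end, fell as well. It had 14.6, 15.2 and 14.1 CPM in CRLM1-OE, 24.4, 24.1 and 23.5 CPM in Ctrl, and 27.7, 26.4 and 24.1 CPM in Anti. CRLM1-OE libraries were below all others, while Ctrl and Anti met at 24.1 CPM. The log2 fold change was -0.72 ± 0.062 against Ctrl (edgeR adjusted p = 9.71e-30) and -0.84 ± 0.0599 against Anti (7.19e-43). LAMB3, which assembles with it, moved less. It was at -0.09 ± 0.0216 against Ctrl and -0.24 ± 0.0186 against Anti, both past the threshold, but with total counts as the scale the first value became 0.06 with its own adjusted p of 0.0328. Of the 5 genes of the hemidesmosome and its laminin described here (ITGB4, ITGA6, COL17A1, LAMA3 and LAMB3), 4 fell against Ctrl and 5 against Anti. All have a mean of at least 100 counts, where 39.1% and 40.4% of all genes fell. The falls of LAMB3 against Ctrl and ITGA6 against Anti were small. With a trend in GC content and transcript length removed ITGA6 was at 0.08 against Anti. Whether the 5 genes differ from all genes was not tested.

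The cytoplasmic partners of the hemidesmosome, named here after their values were seen, did not move as a set. PLEC, the plectin that links ITGB4 to keratin, rose from 876 ± 9.05 CPM (SD, n = 3) in Ctrl to 1410 ± 21.8 CPM in CRLM1-OE (0.69 ± 0.0186 SE) and stood at 1130 ± 11.8 CPM in Anti. DST, the gene of the hemidesmosomal plakin BPAG, fell by 0.41 on the log2 scale against Ctrl (log2 fold change -0.41 ± 0.0567). CD151, a tetraspanin partner of laminin-binding integrins, was at -0.06 ± 0.0234 against Ctrl and 0.19 ± 0.0211 against Anti; both passed, in opposite directions.

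**Figure D3:**
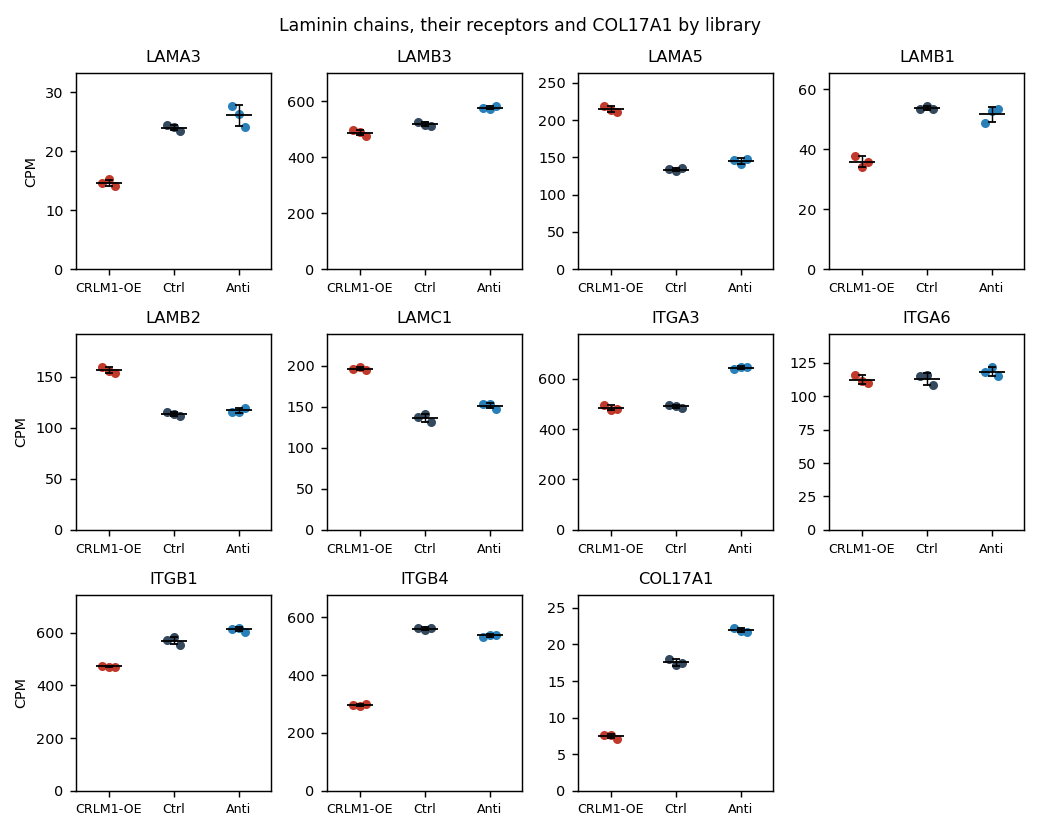
CPM by library (points) with mean and SD (black) for 6 laminin chains, 4 integrin chains and COL17A1, each axis starting at 0. ITGB4, COL17A1, LAMA3 and LAMB1 are lower in CRLM1-OE than in both control groups, and LAMA5, LAMB2 and LAMC1 higher.

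The other laminin chains moved in both directions, within the alpha and within the beta chains. LAMA5, the alpha chain of the broadly distributed epithelial laminins, had 219, 213 and 211 CPM in CRLM1-OE against 134, 131 and 135 CPM in Ctrl and 146, 141 and 148 CPM in Anti. Its CRLM1-OE libraries were all above the others, with a log2 fold change of 0.68 ± 0.0271 against Ctrl (edgeR adjusted p = 3.22e-137) and 0.57 ± 0.0242 against Anti. With a trend in GC content and transcript length removed LAMA5 was at 0.16 and 0.29, and LAMB2, described next, at 0.22 and 0.28. LAMC1, the gamma chain most widely used in laminins, rose by 0.52 ± 0.0274 and 0.38 ± 0.0244, from 138, 141 and 131 CPM in Ctrl to 196, 199 and 195 CPM in CRLM1-OE. For the beta chains the signs were opposite. LAMB2 rose by 0.46 ± 0.0289 and 0.42 ± 0.0262, with 160, 156 and 154 CPM in CRLM1-OE and 112 to 120 CPM in the 6 control libraries. LAMB1, which takes the same place in the trimer, fell by 0.58 on the log2 scale against Ctrl (-0.58 ± 0.0424) and was at -0.52 ± 0.0415 against Anti, with 37.7, 34.0 and 35.6 CPM in CRLM1-OE and 48.6 to 54.4 CPM in the controls. LAMA4, an alpha chain of vessels and mesenchyme, fell from 5.15, 4.58 and 4.32 CPM in Ctrl to 3.31, 2.51 and 2.85 CPM (-0.69 ± 0.13 against Ctrl, -0.66 ± 0.129 against Anti), with no overlap with the controls. LAMC3 and LAMA2 did not pass against Ctrl (0.06 ± 0.061 and -0.03 ± 0.133), and LAMC3 was at -0.14 ± 0.058 against Anti, a call lost without any of 5 of the 6 libraries, Anti replicate 1 being the exception (edgeR adjusted p between 0.0699 and 0.137).

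The chains were also set against each other within each library, on FPKM and for pairs chosen after the values were seen. The ratio of LAMB2 to LAMB1 was 4.74 ± 0.202 (SD, n = 3) in CRLM1-OE, 2.3 ± 0.0499 in Ctrl and 2.46 ± 0.0943 in the Anti group. LAMA5, whose rise was smaller with the GC and length trend removed, exceeded LAMA3 14.2 ± 0.539 times in CRLM1-OE, against 5.37 ± 0.153 times in Ctrl and 5.39 ± 0.446 times in the Anti group. ITGA6 to ITGB4 was 0.4 ± 0.0125 in CRLM1-OE, 0.214 ± 0.00863 in Ctrl and 0.233 ± 0.0073 in the Anti group. In each, CRLM1-OE libraries lay above all control libraries, with a two-sided exact permutation p of 0.1 in both comparisons, the smallest that 3 against 3 libraries allow. ITGB1 to ITGB4 (2.51 ± 0.0379 against 1.6 ± 0.0485 in Ctrl) also did not overlap (exact permutation p = 0.1). Such ratios do not depend on how the libraries are scaled to each other. They show unequal change, not which of the chains changed. FPKM is scaled for exon length, and counts per gene do not separate long and short transcripts, such as those of LAMA3. The size of a ratio within a group may therefore differ from the true ratio of transcripts.

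**Figure D4:**
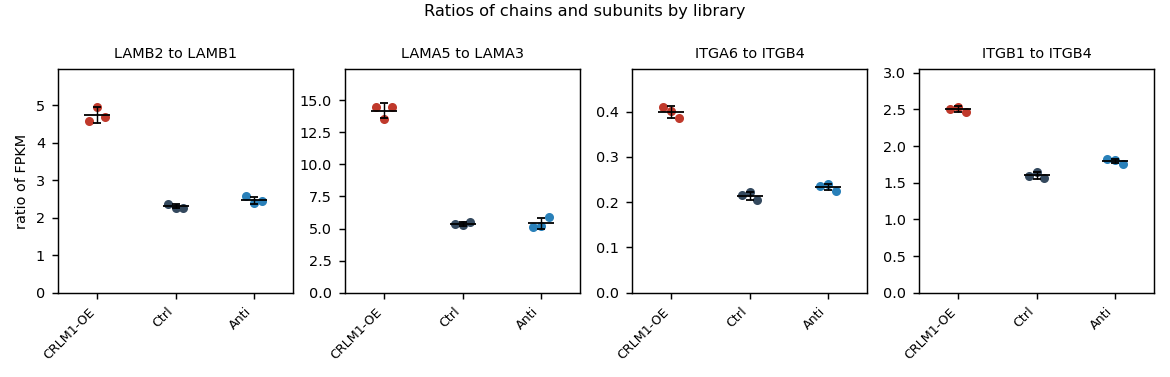
Ratios of FPKM by library (points) with mean and SD (black) for 4 pairs of chains or subunits, axes starting at 0. In all 4 the CRLM1-OE libraries lie above the Ctrl and Anti libraries, at 14.2 against 5.37 and 5.39 for LAMA5 to LAMA3.

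Upstream sequence is shown for 5 of the 6 laminin chains with the largest fold changes against Ctrl among those past the threshold. LAMA4, the lowest of these 6 in counts, is left out. Upstream sequence is also shown for the collagens that were DEGs in both comparisons with a mean of at least 100 counts. Of the 75 genes 54 had a RefSeq promoter entry (GRCh38.p14), with 73 windows of 250 bases before a start site. For a gene with several windows the one nearest the GENCODE gene start is printed. Capitals mark TGANTCA (the AP-1 core), GGGCGG (a GC box) or TATAAA, each searched on both strands. LAMA3 and LAMB1 fell in CRLM1-OE, and LAMA5, LAMB2 and LAMC1 rose.
LAMA3 (chr18:23872770-23873019, plus strand): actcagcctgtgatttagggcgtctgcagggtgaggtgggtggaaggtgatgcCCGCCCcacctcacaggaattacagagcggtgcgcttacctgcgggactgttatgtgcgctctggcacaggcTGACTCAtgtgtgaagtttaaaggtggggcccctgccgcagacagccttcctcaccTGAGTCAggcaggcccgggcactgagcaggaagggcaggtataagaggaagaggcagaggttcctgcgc
LAMB1 (chr7:108003162-108003411, minus strand): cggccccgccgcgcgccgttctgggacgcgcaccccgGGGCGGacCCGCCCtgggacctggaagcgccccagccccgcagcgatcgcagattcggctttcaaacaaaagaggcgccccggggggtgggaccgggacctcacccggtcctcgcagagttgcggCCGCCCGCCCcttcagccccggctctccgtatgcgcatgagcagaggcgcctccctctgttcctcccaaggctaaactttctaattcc
LAMA5 (chr20:62367313-62367562, minus strand): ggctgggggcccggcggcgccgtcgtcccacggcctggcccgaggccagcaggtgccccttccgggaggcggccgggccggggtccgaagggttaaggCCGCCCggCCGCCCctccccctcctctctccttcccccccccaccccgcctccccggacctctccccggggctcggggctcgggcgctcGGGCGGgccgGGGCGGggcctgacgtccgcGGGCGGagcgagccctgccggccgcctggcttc
LAMB2 (chr3:49133051-49133300, minus strand): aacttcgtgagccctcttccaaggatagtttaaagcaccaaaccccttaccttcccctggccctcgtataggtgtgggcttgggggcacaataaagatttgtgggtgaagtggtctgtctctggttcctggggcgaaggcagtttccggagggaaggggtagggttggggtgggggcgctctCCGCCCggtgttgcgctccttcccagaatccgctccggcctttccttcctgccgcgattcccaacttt
LAMC1 (chr1:183023170-183023419, plus strand): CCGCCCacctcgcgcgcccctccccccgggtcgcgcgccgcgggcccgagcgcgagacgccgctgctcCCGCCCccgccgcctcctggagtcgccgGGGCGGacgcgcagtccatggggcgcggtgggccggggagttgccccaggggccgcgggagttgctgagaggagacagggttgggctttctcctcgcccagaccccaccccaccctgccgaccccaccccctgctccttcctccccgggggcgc
The LAMA3 start lies 183567 bp inside the GENCODE gene, so it belongs to a shorter transcript, and counts per gene do not separate it from the longer form. LAMA3 held 2 AP-1 cores, and such a core was found in 4.11% of the 73 windows and in 6.57% of all 35116 windows. In the group it was also found for LAMB3, which moved little against Ctrl, and for COL10A1, and for no other gene. A GC box was found in all 5, in 53.4% of the 73 windows and in 42.6% of all windows: LAMA5 held 5, LAMB1 4, LAMC1 3, and LAMB2 and LAMA3 1 each. These are matches of letters, not sites shown to be used.

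Among the other integrins the collagen receptor chain ITGA2 was lowest in CRLM1-OE. It had 54.4, 49.9 and 50.2 CPM there, 67.9, 67.0 and 61.6 CPM in Ctrl and 83.8, 87.0 and 83.2 CPM in Anti. The 3 groups did not overlap, and the log2 fold change was -0.34 ± 0.038 against Ctrl (edgeR adjusted p = 1.48e-18) and -0.71 ± 0.0341 against Anti. ITGB1 took the same order, at 471 to 475 CPM in CRLM1-OE, 555 to 583 CPM in Ctrl and 605 to 620 CPM in Anti (-0.27 ± 0.0214 and -0.37 ± 0.0185). ITGAV, the alpha chain of several RGD receptors, had 17.4, 16.6 and 17.4 CPM in CRLM1-OE, 21.8, 18.7 and 18.2 CPM in Ctrl, and 29.4, 28.1 and 28.1 CPM in Anti. Its distance to Anti was large beside the replicate spread (-0.73 ± 0.0562, edgeR adjusted p = 1.14e-37), and that to Ctrl rested on Ctrl replicate 1 (-0.20 ± 0.0625, edgeR adjusted p = 0.00607; without that library -0.10 and 0.382). ITGA3, the main laminin receptor chain beside ITGA6, was at 496, 476 and 481 CPM in CRLM1-OE and 495, 490 and 485 CPM in Ctrl, which overlapped, against 638, 647 and 645 CPM in Anti (-0.02 ± 0.0217, not past the threshold, and -0.41 ± 0.0184). With total counts as the scale ITGA3 was at 0.12 against Ctrl and passed. It also passed with the GC and length trend removed, but as a fall (-0.25). ITGB5, an ITGAV partner, had 55.4, 56.8 and 52.5 CPM in CRLM1-OE, 50.6, 56.0 and 53.8 CPM in Ctrl and 62.2, 64.5 and 67.1 CPM in Anti, and passed only against Anti (-0.23 ± 0.0358).

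The integrins that rose were at lower levels, except ITGA5. ITGA5, the fibronectin receptor chain, rose from 68.1 to 68.6 CPM in Ctrl and 73.5 to 74.4 CPM in Anti to 82.5 to 84.1 CPM (0.28 ± 0.0345 and 0.18 ± 0.0318). ITGAX, the alpha chain known as CD11c in myeloid cells, had 9.37, 7.5 and 9.24 CPM in CRLM1-OE, 6.5, 5.89 and 6.44 CPM in Ctrl, and 5.73, 5.33 and 4.89 CPM in Anti. All its CRLM1-OE libraries were above the controls (0.48 ± 0.0948, edgeR adjusted p = 3.11e-06, and 0.72 ± 0.0968). ITGAL, another leukocyte chain, had 13, 8 and 11 counts in CRLM1-OE, 2, 3 and 4 in Ctrl and 2, 2 and 8 in Anti, and passed against Ctrl (log2 fold change 1.67 ± 0.614, edgeR adjusted p = 0.0229) and not against Anti (1.31 ± 0.573, edgeR adjusted p = 0.0616). Without Anti replicate 3 it passed against Anti as well (2.32, edgeR adjusted p = 0.00794), as it did with total counts (0.0472). The call of ITGAL against Ctrl was lost without CRLM1-OE replicate 1 (0.0842), CRLM1-OE replicate 3 (0.0575) or Ctrl replicate 1 (0.12). The 4 leukocyte markers summed to 3.94 to 4.19 CPM in CRLM1-OE, 3.59 to 3.99 in Ctrl and 2.86 to 3.38 in the Anti group, and their part in these values was not tested. ITGA7, a laminin receptor chain of muscle, rose by 0.31 ± 0.0964 and 0.25 ± 0.0942, and lost the call against Anti without Anti replicate 3 (edgeR adjusted p = 0.19), CRLM1-OE replicate 2 (0.0866) or CRLM1-OE replicate 3 (0.0628).

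ITGA1, a collagen receptor chain, had 1.55, 1.2 and 1.46 CPM in CRLM1-OE, 0.851, 0.671 and 0.749 CPM in Ctrl and 0.247, 0.746 and 1.08 CPM in Anti. It lay above all controls (0.89 ± 0.233 against Ctrl, edgeR adjusted p = 0.000616, and 1.06 ± 0.237 against Anti), but the value against Anti fell to 0.63 without Anti replicate 1. ITGA1 shares 499 bp of exon with PELO, a gene with a mean of 2157 counts beside 36.4 for ITGA1, on the same strand. ITGA9, a tenascin-binding chain, rose by 0.91 ± 0.239 and 0.98 ± 0.239 at 35.2 counts on average, and 763 bp of it are shared with ITGA9-AS1. ITGB3, the beta chain of the platelet and vitronectin receptors, had 21, 11 and 17 counts in CRLM1-OE, 5, 3 and 12 in Ctrl and 6, 8 and 4 in Anti. Its libraries overlapped with those of Ctrl and lay above those of Anti (1.15 ± 0.448 and 1.35 ± 0.457). The value against Ctrl moved to 1.96 without Ctrl replicate 3, and the call was lost without CRLM1-OE replicate 1 (edgeR adjusted p = 0.14), CRLM1-OE replicate 3 (0.0746), Ctrl replicate 1 (0.183) or Ctrl replicate 2 (0.195). The call of ITGB3 against Anti was lost without CRLM1-OE replicate 1 (0.0602) or Anti replicate 3 (0.0503). ITGA11 had 0 counts in each CRLM1-OE library, 4, 3 and 1 in Ctrl and 0, 0 and 2 in Anti, too few for a fold change although it passed against Ctrl (edgeR adjusted p = 0.0364), which it did not without any of 5 of the 6 libraries, Ctrl replicate 3 being the exception (0.1 to 0.139). ITGA2B and ITGB8 passed against Anti only (0.60 ± 0.193 and -0.67 ± 0.227). Both lost the call without CRLM1-OE replicate 1 (edgeR adjusted p = 0.0825 and 0.0747) or Anti replicate 3 (0.138 and 0.0602).

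Among collagens with a mean of at least 100 counts, COL11A2, COL7A1 and COL13A1 rose by more than 2-fold in both comparisons. COL11A2, a minor fibril chain of cartilage, had 14.2, 13.9 and 14.4 CPM in CRLM1-OE, 4.63, 4.81 and 4.38 CPM in Ctrl and 3.06, 4.07 and 3.78 CPM in Anti. Its CRLM1-OE libraries were far above the other 6, with a 3.08-fold rise over Ctrl (log2 fold change 1.62 ± 0.0911, edgeR adjusted p = 6.59e-69) and a 3.92-fold rise over Anti (1.97 ± 0.0949). COL7A1, the collagen of the anchoring fibrils that fasten basement membranes to the tissue beneath, had 11.3, 10.6 and 9.89 CPM in CRLM1-OE, 3.07, 3.59 and 3.96 CPM in Ctrl and 2.99, 2.66 and 3.47 CPM in Anti. The controls overlapped each other and stayed below 4 CPM, and the rise was 3.02-fold over Ctrl (1.60 ± 0.103, edgeR adjusted p = 1.61e-52) and 3.51-fold over Anti (1.81 ± 0.105). COL7A1 and COL17A1, both proteins of epithelial anchorage, thus changed in opposite directions.

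COL13A1, a transmembrane collagen found at cell junctions, had the highest FPKM of the DEGs (10.7 on average over the 9 libraries), with 61.7, 58.4 and 59.6 CPM in CRLM1-OE. The Ctrl libraries had 29.8, 26.6 and 25.3 CPM and the Anti libraries 23.2, 23.6 and 25.8 CPM. CRLM1-OE stood 2.19-fold above Ctrl (1.13 ± 0.0437, edgeR adjusted p = 4.12e-145) and 2.49-fold above Anti (1.31 ± 0.0435). COL1A1 had 14.9, 18.1 and 15.6 CPM in CRLM1-OE and 9.14 to 10.6 CPM in the 6 controls (0.75 ± 0.0744 and 0.70 ± 0.0728). The 4 fibroblast markers summed to 0.171 to 0.365 CPM in CRLM1-OE, 0.0292 to 0.27 in Ctrl and 0.148 to 0.313 in the Anti group, near the limit of 3 counts. COL27A1, another fibril collagen, rose by 0.52 ± 0.093 and 0.32 ± 0.0893, and COL12A1, which lies on fibril surfaces, by 0.22 ± 0.0405 and 0.25 ± 0.0392 from 43.5 to 48.0 CPM in Ctrl to 52.3 to 54.6 CPM.

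The upstream windows of the collagens that were DEGs in both comparisons with a mean of at least 100 counts are given in the same notation.
COL17A1 (chr10:104085881-104086130, minus strand): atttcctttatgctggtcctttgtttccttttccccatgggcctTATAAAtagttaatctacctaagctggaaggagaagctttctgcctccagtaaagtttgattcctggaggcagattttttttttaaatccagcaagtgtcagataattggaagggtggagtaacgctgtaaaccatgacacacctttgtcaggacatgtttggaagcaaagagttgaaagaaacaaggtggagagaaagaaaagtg
COL7A1 (chr3:48595330-48595579, minus strand): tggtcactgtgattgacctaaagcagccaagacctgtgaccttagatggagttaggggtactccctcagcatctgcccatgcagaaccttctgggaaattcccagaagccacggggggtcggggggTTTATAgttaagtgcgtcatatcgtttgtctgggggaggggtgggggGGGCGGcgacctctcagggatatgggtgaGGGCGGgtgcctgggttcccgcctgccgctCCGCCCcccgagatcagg
COL11A2 (chr6:33193138-33193387, minus strand, 1 of 4 listed starts): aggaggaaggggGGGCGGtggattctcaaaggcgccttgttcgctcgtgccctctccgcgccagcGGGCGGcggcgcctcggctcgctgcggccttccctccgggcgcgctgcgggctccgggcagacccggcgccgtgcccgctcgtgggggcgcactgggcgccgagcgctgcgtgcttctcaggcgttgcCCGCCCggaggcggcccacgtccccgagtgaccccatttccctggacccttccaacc
COL13A1 (chr10:69801656-69801905, plus strand): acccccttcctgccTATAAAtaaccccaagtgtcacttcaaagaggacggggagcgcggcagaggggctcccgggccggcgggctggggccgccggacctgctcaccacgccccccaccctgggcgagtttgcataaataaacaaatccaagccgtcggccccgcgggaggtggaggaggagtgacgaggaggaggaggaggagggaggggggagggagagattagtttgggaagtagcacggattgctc
TATAAA was found in COL17A1, which fell, and in COL7A1 and COL13A1, which rose, and in none of the 4 windows of COL11A2, which rose. It was present in 12.3% of the 73 windows and in 10.7% of all windows. COL7A1 and the COL11A2 window shown held 3 GC boxes each, and COL17A1 and COL13A1 none.

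Several collagens were called at few counts. COL20A1 had 23, 8 and 14 counts in CRLM1-OE, 4, 2 and 8 in Ctrl and 5, 4 and 3 in Anti (log2 fold change 1.53 ± 0.498 and 1.79 ± 0.514), and without CRLM1-OE replicate 1 neither comparison passed (edgeR adjusted p = 0.155 and 0.0628), nor did that with Ctrl without Ctrl replicate 2 (0.0676). COL5A3 had 20, 11 and 11 counts in CRLM1-OE, 3, 9 and 4 in Ctrl and 3, 6 and 7 in Anti (1.24 ± 0.492 and 1.29 ± 0.49), and it too lost both calls without CRLM1-OE replicate 1 (0.239 and 0.188). The COL5A3 call against Ctrl was also lost without Ctrl replicate 1 (0.239) or Ctrl replicate 3 (0.0928) and that against Anti without Anti replicate 1 (0.157), and the value against Ctrl was 1.89 without Ctrl replicate 2. COL15A1, a basement membrane collagen, had 0.684, 0.542 and 0.656 CPM in CRLM1-OE, 0.354, 0.379 and 0.21 CPM in Ctrl and 0.123, 0.186 and 0.114 CPM in Anti. The 3 groups were separate, at 0.98 ± 0.346 against Ctrl, a call lost without CRLM1-OE replicate 1 (0.0569) or Ctrl replicate 3 (0.0849), and 2.13 ± 0.412 against Anti (edgeR adjusted p = 1.14e-06).

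Of the collagens of basement membrane and pericellular matrix, the abundant COL18A1, COL6A1 and COL6A2 changed by less than 2-fold in both comparisons. COL6A3 and COL4A3, at lower levels, changed more than these against Anti. COL18A1 had 243, 228 and 231 CPM in CRLM1-OE, 277 to 289 CPM in Ctrl and 295 to 299 CPM in Anti, a fall in both comparisons (-0.27 ± 0.0246 and -0.34 ± 0.0218). COL6A1 and COL6A2, chains of the type VI microfibrils, fell against Ctrl (-0.22 ± 0.0281 and -0.16 ± 0.0256) and did not pass against Anti (0.01 ± 0.0261 and -0.03 ± 0.0232). With total counts as the scale COL6A2 no longer passed against Ctrl (-0.02, edgeR adjusted p = 0.543). COL6A3, the longest chain of that collagen, had 2.35, 2.11 and 2.65 CPM in CRLM1-OE, 2.46, 2.22 and 2.34 CPM in Ctrl and 4.02, 3.33 and 3.78 CPM in Anti. It was lower than in Anti (-0.64 ± 0.141) and did not pass against Ctrl (0.02 ± 0.159). COL4A4 rose by 0.38 ± 0.0933 and 0.39 ± 0.0924. COL4A3 had 3.81, 4.28 and 4.24 CPM in CRLM1-OE, 3.36, 3.24 and 3.93 CPM in Ctrl and 2.27, 2.69 and 3.13 CPM in Anti, and passed against Anti (0.61 ± 0.135). COL4A5 passed in no comparison, and COL4A6 and COL9A3 passed against Anti only (-0.37 ± 0.146 and -0.15 ± 0.0519), and both lost the call without CRLM1-OE replicate 3 (edgeR adjusted p = 0.174 and 0.21), Anti replicate 1 (0.114 and 0.0539) or Anti replicate 3 (0.0813 and 0.0513).

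**Figure D5:**
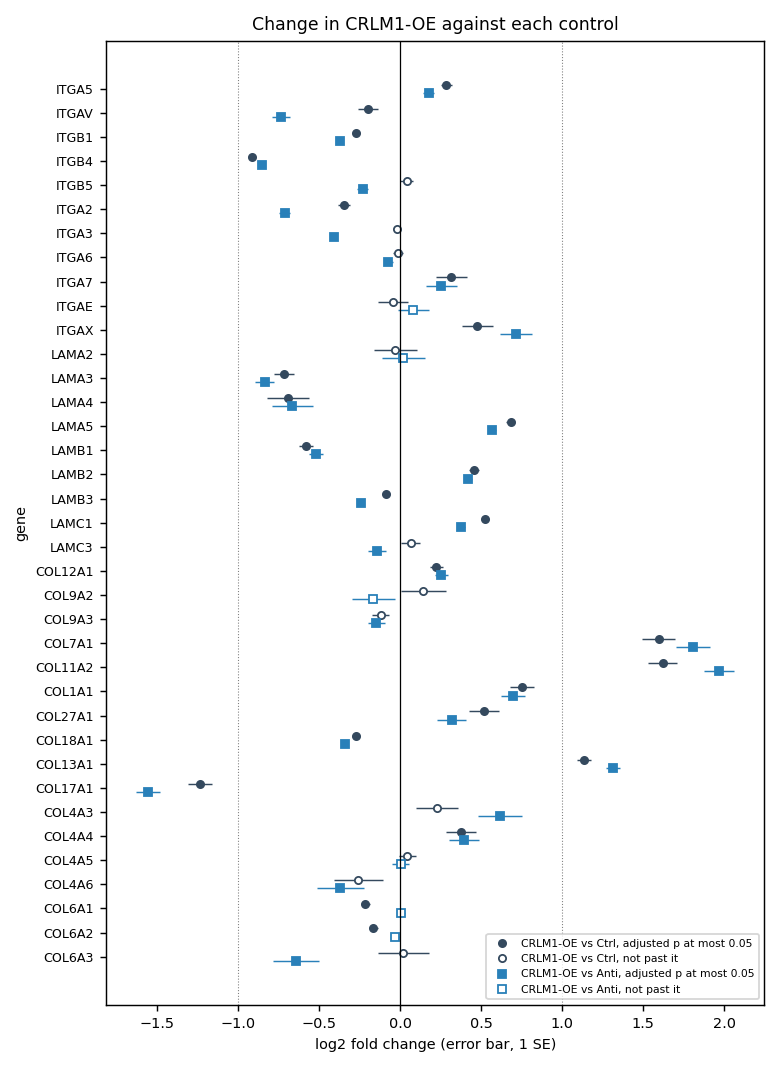
log2 fold change of CRLM1-OE against Ctrl (dark circles) and against Anti (blue squares) with 1 SE, for 37 genes with a mean of at least 100 counts; filled symbols passed an edgeR adjusted p of 0.05 and dotted lines mark a 2-fold change. COL7A1, COL11A2 and COL13A1 lie beyond 1 and COL17A1 beyond -1 in both comparisons, and ITGB4 lies at -0.92 and -0.85.

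Most of these genes are GC-rich, and fold changes moved with GC content over all genes. Across 11650 genes with a mean of at least 100 counts the correlation of log2 fold change with the GC share of the longest transcript was 0.206 against Ctrl and 0.221 against Anti, and across the 38 genes 0.236 and 0.268; genes are not independent replicates. The median log2 fold change against Ctrl was -0.14 in the 2913 genes of lowest GC content (3 of the 38 among them) and 0.06 in the 2913 of highest (16 of the 38). With a trend in GC content and length removed, an alternative added after the data were seen, COL11A2 (1.31 against Ctrl), COL7A1 (1.16), COL13A1 (1.16) and COL17A1 (-1.40) stayed beyond 2-fold and ITGB4 was at -1.21. LAMA5 and LAMB2 were then smaller, as given above, and COL1A1 was at 0.49 and 0.54, all past the threshold. COL27A1 (0.18), ITGA7 (0.17), COL20A1 (1.18) and COL5A3 (0.93) no longer passed against Ctrl, nor did ITGAV (0.03). Against Anti, COL27A1 (0.14), ITGA7 (0.15), COL5A3 (1.11) and ITGB8 (-0.43) no longer passed. ITGB1 at -0.12 and ITGA2 at -0.20 against Ctrl were smaller falls. COL18A1 was at -0.65 and COL6A1 at -0.41, larger falls than in the values above.

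Without a known strand of counting, reads from overlapping exons cannot be assigned, and 24 of the 75 genes share exon sequence with another gene of the table (GENCODE version 44). For LAMB1 it is 300 bp with DLD, which had a log2 fold change of -0.58 against Ctrl, and for COL18A1 1563 bp with SLC19A1 (-0.99). For LAMA5 it is 244 bp with ADRM1, which was at -0.09 against Ctrl and 0.14 against Anti. ITGB4, LAMA3, COL17A1, COL7A1, COL11A2 and COL13A1 have no such overlap. The part of shared reads in these values was not tested.

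The comparison of Anti with Ctrl gives the background for an insert that is not CRLM1 in its sense orientation. Here 12 of 73 genes rose and 6 fell, beside 11.5% and 12.2% of 29714 genes tested, and none was a DEG, beside 0.683% up and 0.38% down. All 18 had a mean of at least 100 counts, where 25.0% of all genes rose and 28.8% fell. Integrins and laminins made up most of those that rose (5 and 5), and collagens most of those that fell (5). COL6A3 rose by 0.64 ± 0.144, ITGAV by 0.51 ± 0.0562, ITGA3 by 0.37 ± 0.021, ITGA2 by 0.34 ± 0.0345, COL17A1 by 0.30 ± 0.0617 and ITGB5 by 0.25 ± 0.0378. COL4A3 (-0.41 ± 0.142), COL11A2 (-0.37 ± 0.126), COL6A1 (-0.25 ± 0.0278), COL13A1 (-0.20 ± 0.0541), COL6A2 (-0.16 ± 0.0253) and ITGB4 (-0.09 ± 0.0211) fell. Smaller rises included those of LAMC3 (0.18 ± 0.0605), LAMB3 (0.13 ± 0.0211), LAMC1 (0.12 ± 0.028), LAMA5 (0.09 ± 0.0283) and ITGB1 (0.08 ± 0.0208). COL11A2 and COL4A3 lost their calls without Anti replicate 1 (edgeR adjusted p = 0.21 and 0.188), as LAMA5 did (0.0603). COL11A2 did so also without Ctrl replicate 2 (0.0718) and COL4A3 without Ctrl replicate 3 (0.157), and COL13A1 did so without Ctrl replicate 1, at -0.13 (edgeR adjusted p = 0.154). With total counts as the scale, 19 rose and 1 fell, and ITGB4 was at 0.02. Across 11650 genes with a mean of at least 100 counts, log2 fold change here had a correlation of 0.226 with log2 transcript length. With the GC and length trend removed, 8 of the group rose and 13 fell. LAMC3 (0.03), LAMC1 (0.04) and ITGB1 (0.04) then did not pass, and LAMA5 was at -0.15. COL7A1, LAMB1, COL12A1, ITGAX, LAMB2 and COL18A1 then passed as falls.

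The choice of scale moved all genes a little: with total counts and no factors the median log2 fold change of the 11702 genes against Ctrl shifted by 0.14, and 29 genes of the group rose and 10 fell, in place of 21 and 13. Against Anti the split became 25 and 14, in place of 21 and 18. All fold changes are therefore relative to the TMM centre, and differences of that size, such as those of LAMB3, ITGA3 and ITGA6 against Ctrl, changed sign with the scale.

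Other ligands of the same receptors were read from lists of matrix proteins, receptors, adaptors and collagen enzymes. Of 33 matrix ligands 12 rose and 1 fell against Ctrl (median of the log2 fold changes 0.63), beside 15.0% and 16.8% of all genes, and 15 of 32 rose and 4 fell against Anti, with a median of 0.42, beside 17.1% and 18.5%. At a mean of at least 100 counts the shares of all genes were higher, 28.8% and 39.1% against Ctrl and 33.8% and 40.4% against Anti. The lists were not split by level, and whether their shares differ from those of all genes was not tested. THBS1, a thrombospondin bound by CD47, was a DEG against Ctrl, at 52.0, 50.3 and 51.7 CPM in CRLM1-OE and 24.3 to 25.8 CPM in Ctrl (1.03 ± 0.0459), and rose less against Anti (0.63 ± 0.0422). TNXB, a tenascin of connective tissue, was a DEG in both comparisons, at 21.4, 19.9 and 18.6 CPM in CRLM1-OE and 5.8 to 6.88 CPM in the controls (1.59 ± 0.0764 and 1.70 ± 0.0767). In Anti against Ctrl 6 of 32 rose and 7 fell, beside 11.5% and 12.2% of all genes and 25.0% and 28.8% of those with a mean of at least 100 counts. TNC rose (1.06 ± 0.367) and FBN1 fell (-1.54 ± 0.478), at 15.0 and 14.6 counts on average. The call of TNC was lost without Anti replicate 1 (edgeR adjusted p = 0.128), Anti replicate 3 (0.0581) or Ctrl replicate 1 (0.0797), and that of FBN1 without Anti replicate 2 (0.0559) or Ctrl replicate 3 (0.106).

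Of 13 receptors other than integrins, 4 rose and 5 fell against Ctrl, beside 15.0% and 16.8% of all genes, and 5 rose and 4 fell against Anti, beside 17.1% and 18.5% (medians -0.04 and -0.01). Genes with a mean of at least 100 counts had shares of 28.8% and 39.1% against Ctrl and 33.8% and 40.4% against Anti. CD47, an integrin-associated receptor of thrombospondin, had 27.1, 29.0 and 29.8 CPM in CRLM1-OE and 50.8 to 54.6 CPM in the controls (-0.88 ± 0.0444 and -0.89 ± 0.0432), well below every control library. LAIR1, a collagen receptor of leukocytes, rose against Ctrl at 22.4 counts on average (1.29 ± 0.31). PLAUR, the urokinase receptor, fell (-0.68 ± 0.0309 and -0.87 ± 0.0279). In Anti against Ctrl 5 rose and 2 fell, with SDC3 at 0.36 ± 0.0446 and CD44 at -0.32 ± 0.0211. Of all genes 11.5% rose and 12.2% fell there, and 25.0% and 28.8% of those with a mean of at least 100 counts.

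Of 36 cytoplasmic adaptors 11 rose and 9 fell against Ctrl, beside 15.0% and 16.8% of all genes, and 16 rose and 13 fell against Anti, beside 17.1% and 18.5%, with medians of -0.02 and 0.02. Shares of all genes with a mean of at least 100 counts were 28.8% and 39.1% against Ctrl and 33.8% and 40.4% against Anti. FERMT1, the epithelial kindlin that activates integrin beta chains, had 12.4, 13.1 and 11.3 CPM in CRLM1-OE, 33.2, 32.2 and 30.2 CPM in Ctrl and 53.5, 54.0 and 54.3 CPM in Anti. The 3 groups were wide apart, in the order CRLM1-OE, Ctrl and Anti that COL17A1, ITGA2 and ITGB1 also took, and FERMT1 was a DEG against Ctrl (-1.38 ± 0.0599, edgeR adjusted p = 8.49e-115) and Anti (-2.13 ± 0.0512) and was higher in Anti than in Ctrl (0.73 ± 0.0434). TNS3, a tensin, was the adaptor with the next largest change between Anti and Ctrl (0.48 ± 0.0762), where 10 rose and 9 fell. The shares of all genes there were 11.5% and 12.2%, and 25.0% and 28.8% with a mean of at least 100 counts.

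Of 34 genes of collagen folding, secretion and cross-linking, 8 rose and 14 fell against Ctrl with a median of -0.12, beside 15.0% and 16.8% of all genes. Against Anti 12 of 32 rose and 14 fell with a median of -0.08, beside 17.1% and 18.5%. Among all genes with a mean of at least 100 counts the shares were 28.8% and 39.1% against Ctrl and 33.8% and 40.4% against Anti. PLOD1, a lysyl hydroxylase of collagen, had 247, 245 and 248 CPM in CRLM1-OE, 454 to 463 CPM in Ctrl and 372 to 377 CPM in Anti (-0.90 ± 0.0233 and -0.60 ± 0.0211). P4HA3, a prolyl hydroxylase subunit, rose at 41.4 counts on average (0.91 ± 0.226 and 0.71 ± 0.216). The prolyl 3-hydroxylases P3H1 (0.56 ± 0.0493 and 0.93 ± 0.051) and P3H2 (0.69 ± 0.268 and 0.93 ± 0.277) rose in both comparisons, P3H2 at 27.7 counts and without its calls when CRLM1-OE replicate 1 was left out (edgeR adjusted p = 0.272 and 0.0616) and without that against Ctrl when CRLM1-OE replicate 2 (0.0928) or Ctrl replicate 3 (0.0917) was. In Anti against Ctrl 7 of 34 rose and 13 fell, beside 11.5% and 12.2% of all genes and 25.0% and 28.8% of those with a mean of at least 100 counts. PCOLCE, the enhancer of procollagen processing, was at -0.89 ± 0.142 and ADAMTS14, a procollagen protease, at 0.45 ± 0.0716.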

How the data were processed

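Poly(A) RNA of 9 HCT116 libraries, grouped by the labels, was sequenced in pairs. FASTX trimming, removal of reads under 16 nt and TopHat2 alignment to GRCh38 (GENCODE version 23, at most 4 mismatches) preceded the raw gene counts of uniquely mapped reads that the authors deposited. A deposited table of FPKM, to 2 decimals, was scaled by the authors for exon length and mapped fragments, and its rows do not include COL1A2, COL2A1 or ITGA4, whose FPKM was not analysed here. The submitters' processing notes name bcl2fastq, TopHat2 and edgeR. Whether strand was used, and whether a read pair counted once, is not given in the sources used here. All 9 columns of each table were mapped to samples, and 0 were left out.

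Counts were compared here with edgeR 4.0.16 in R 4.3.3 (TMM, quasi-likelihood test), for each pair of groups on its 6 libraries, over every gene with at least 1 count. Benjamini-Hochberg adjustment ran over all genes tested; p below 1e-300 is written 1e-300. Total counts per library, 33302292 to 44514692, set the precision. CPM used TMM factors over the 9 libraries. Ratios were compared by a two-sided exact permutation test.

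The genes and lists were chosen with earlier results of these data known. Named with values were members past the threshold in any comparison; per library, DEGs and the 8 largest changes per comparison with a mean of at least 100 counts; the 10 highest mean FPKM; and, per list, DEGs at that level or else the 2 largest changes. A gene that the rule names is not reported here and is left out of the figures, while counts of genes include it. LAMA5, LAMB1, LAMB2, LAMC1, PLEC, DST and CD151 were singled out beyond this rule after their values were seen. The alternatives were RLE factors, total counts, filterByExpr, the Wald test of DESeq2 1.42.0, limma 3.58.1 on log2(FPKM + 0.1) and log2(FPKM + 1), a fit of all 9 libraries, a replicate block, each library left out and, added later, removal of a GC and length trend. Tests were tried on simulated data. Promoters came from RefSeq, and overlaps and transcript sequences from GENCODE version 44. Figures were drawn with matplotlib 3.10.9 (pandas 2.3.3, Python 3.11.15).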

Additional observations from a re-analysis of the deposited data

How the results depend on the processing

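Of the genes called in the report, 18 of 34 against Ctrl, 24 of 39 against Anti and 8 of 18 in Anti against Ctrl kept direction and call under every alternative that gave a value. They include ITGB4, COL17A1, LAMA3, LAMA5, LAMB1, LAMB2, LAMC1, COL7A1, COL11A2, COL13A1 and COL1A1 for both comparisons of CRLM1-OE. Against Ctrl, limma on log2(FPKM + 0.1) and log2(FPKM + 1) gave 7 and 8 falls in place of 13. DEGs, 9 in the report, were 4 with DESeq2, 4 and 1 with limma at the 2 pseudocounts, and 5 without CRLM1-OE replicate 1. Against Anti, also 9 in the report, they were 4 and 1 with limma. The larger pseudocount reduces fold changes of low genes by construction. In Anti against Ctrl, limma gave 1 fall with either pseudocount in place of 6, total counts 19 rises and 1 fall in place of 12 and 6, and removal of the GC and length trend 13 falls. With each library left out, rises, falls and DEGs were 16 to 21, 11 to 13 and 5 to 9 against Ctrl, 17 to 21, 14 to 16 and 6 to 10 against Anti, and 11 to 13, 5 to 6 and 0 to 0 in Anti against Ctrl. The count of 0 DEGs in Anti against Ctrl was also 0 with DESeq2 and limma.

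Direction reversed for LAMB3 against Ctrl (0.0285 and 0.0283 with limma, 0.0552 with total counts), ITGA3 against Ctrl (0.0979, 0.0969 and 0.1249) and ITGB4 in Anti against Ctrl (0.0048, 0.0047 and 0.018). ITGA3 against Ctrl instead passed as a fall with the GC and length trend removed (-0.2542). ITGA6 against Ctrl reversed with total counts (0.127). With the GC and length trend removed, ITGA6 (0.0945), ITGAV (0.0273) and LAMC3 (-0.2794) reversed against Ctrl, ITGA6 (0.0833) and COL6A1 (-0.1215) against Anti, and LAMA5 (-0.1494), LAMB2 (-0.0789) and COL18A1 (-0.1128) in Anti against Ctrl. The cause was not tested.

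The replicate numbers did not pair the libraries: deviations of libraries with the same number correlated between -0.0745 and 0.0783. With a replicate block, rises and falls were 21 and 12 against Ctrl, 21 and 18 against Anti, and 12 and 7 in Anti against Ctrl, and ITGA11 lost its call (edgeR adjusted p = 0.14). Depth limits statements on the 28 genes with a mean under 10 counts, of which ITGAL, ITGB3, ITGA11, COL20A1 and COL5A3 were called.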

Other observations

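The type IV collagen genes with a mean of at least 100 counts lie head to head in pairs. The nearly silent COL4A1 and COL4A2 also lie on opposite strands of chromosome 13, with starts at 110307157 and 110305812. COL4A3 and COL4A4 start 171 bp apart on chromosome 2 in opposite directions. COL4A4 had 8.85, 8.3 and 9.13 CPM in CRLM1-OE and 6.01 to 7.82 CPM in the 6 control libraries, and rose in both comparisons, while COL4A3 rose against Anti only and fell in Anti against Ctrl (log2 fold change -0.41 ± 0.142 SE). COL4A5 and COL4A6 start 341 bp apart on the X chromosome. COL4A5 ran from 23.7 to 26.1 CPM over all 9 libraries and COL4A6 from 2.14 to 3.26 CPM. COL4A3 shares 838 bp of exon with MFF-DT, which had a mean of 23.4 counts and was at 0.03 against Ctrl and 0.51 against Anti.

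The integrins with few counts that passed no comparison were ITGA10 (mean 8.33 counts), ITGAD (3.33), ITGB2 (4.11), ITGB7 (7.22) and ITGAM (28.2), beside ITGA4, ITGA8 and ITGB6. ITGB7 had 12, 7 and 16 counts in CRLM1-OE, 3, 6 and 7 in Ctrl and 3, 6 and 5 in Anti, and shares 1881 bp of exon with ZNF740 (mean 1680 counts). ITGAE, the epithelial homing chain of T cells, was at 6.63 to 8.39 CPM in every library and passed no comparison. Of the collagens, COL16A1, COL26A1 and COL5A2 had means between 33.8 and 51.2 counts and did not pass.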
